A study of Mus musculus with 12 samples.

Results

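The 10 genes described here are the cyclins and cyclin-dependent kinases (CDKs) that drive the cell cycle: the D cyclins Ccnd1, Ccnd2 and Ccnd3, the E cyclins Ccne1 and Ccne2, the A cyclin Ccna2, the B cyclins Ccnb1 and Ccnb2, and the kinases Cdk1 and Cdk2. They were found by gene name in the deposited count table, where all 10 of the 10 names had a row among 55421 genes, and all 10 were among the 18108 genes tested. RNA came from MOC2, a mouse oral squamous carcinoma cell line, grown in culture as 2 derivatives. In the labels MOC2-25 is EV-proficient and MOC2-27 is EV-deficient, where EV stands for extracellular vesicle. The series design states a genetic block of vesicle release. The gene that was targeted, and the number of clones behind each derivative, are not given in the sources used here. Each derivative was given either DMSO, the vehicle, or 600 nM paclitaxel for 48 hours, a microtubule-stabilising drug meant to make the cells senescent. There were 4 groups of 3 libraries: EV-proficient DMSO, EV-deficient DMSO, EV-proficient paclitaxel and EV-deficient paclitaxel. Each EV label is carried by 1 derivative, so that vesicle release and other differences between the derivatives cannot be told apart.

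Cyclins are the regulatory partners that switch on CDKs, and most rise and fall within each division. D cyclins act with Cdk4 and Cdk6 in early G1 to phosphorylate the retinoblastoma protein, E cyclins act with Cdk2 at the entry into S phase, cyclin A2 with Cdk2 and Cdk1 through S and G2, and B cyclins with Cdk1 at the entry into mitosis. Squamous carcinomas often carry high cyclin D1, and senescent cells stop dividing while CDK inhibitors accumulate.

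Depth lay between 23263472 counts (EV-proficient paclitaxel replicate 3) and 62955757 counts (EV-deficient DMSO replicate 1), and the lowest count of any member was 337, for Ccne2 in the shallowest library. Of 12 squamous epithelium markers, 10 exceeded 1 CPM, the read count scaled to a common library size, in each group, with summed levels from 6275 to 7319 CPM in the DMSO libraries and from 3968 to 5004 CPM in the paclitaxel libraries. Trp63 and Krt5 were below 1 CPM in each group, and Krt5 was at 0 in the EV-proficient paclitaxel libraries. Summed leukocyte markers were low but differed between groups, at 1.31 to 1.58 CPM in EV-proficient DMSO, 13.1 to 13.5 in EV-deficient DMSO, 12.1 to 13.7 in EV-proficient paclitaxel and 5.13 to 7.87 in EV-deficient paclitaxel. Csf1r was the leukocyte marker over 1 CPM in each of the latter 3 groups, joined by Ptprc in EV-proficient paclitaxel. Summed fibroblast markers were 1.58 to 3.22 CPM with DMSO and 5.38 to 8.18 with paclitaxel, and endothelial markers 1.77 to 2.60 CPM and 2.75 to 4.35 CPM. The part of these markers in the results was not tested. A row that the authors added for a sequence named dngfr did not follow the EV label: with DMSO its level was 8.99 ± 3.22 CPM (SD, n = 3) in the proficient and 2.14 ± 0.35 in the deficient derivative, and with paclitaxel 3.24 ± 0.68 in the proficient and 10.9 ± 1.4 in the deficient one. The second principal component of all tested genes (16.4% of the variance) grouped the libraries in the same crossed way, with EV-proficient DMSO at 27.2 to 36.5 and EV-deficient paclitaxel at 34.2 to 43.5, against -24.7 to -20.5 in EV-deficient DMSO and -64.6 to -37.9 in EV-proficient paclitaxel. Whether this bears on the labels was not tested. Differences by EV label below therefore hold for the libraries as labelled, while the average paclitaxel effect over both labels uses all 12 libraries whichever EV label each carries.

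The promoters of Ccnb1, Ccnb2 and Cdk1, which encode the parts of the mitotic kinase complex, are shown because the 2 B cyclins moved apart under paclitaxel while Ccnb1 and Cdk1 moved together. Sequences are from the RefSeq promoter table of assembly GRCm38.p6, which matched 6 of the 10 members with 7 promoters (Ccnd1, Ccnd2, Ccne2 and Ccna2 had no match). Letters searched on both strands of the 250 bases before each start were TTTGAA (the core of the cell cycle homology region, CHR), CCAAT (the CCAAT box, ATTGG on the other strand) and the E2F-like TTTCCCGC, TTTCGCGC, TTTGCCGC or TTTGGCGC. Capitals mark the matches.
Ccnb1, chr13:100786571-100786736, minus strand, bases -250 to -85 from the start: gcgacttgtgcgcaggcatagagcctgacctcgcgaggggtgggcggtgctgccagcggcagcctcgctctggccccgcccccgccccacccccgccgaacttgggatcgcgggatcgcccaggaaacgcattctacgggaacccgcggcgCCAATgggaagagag
Ccnb2, chr9:70421555-70421804, minus strand, bases -250 to -1: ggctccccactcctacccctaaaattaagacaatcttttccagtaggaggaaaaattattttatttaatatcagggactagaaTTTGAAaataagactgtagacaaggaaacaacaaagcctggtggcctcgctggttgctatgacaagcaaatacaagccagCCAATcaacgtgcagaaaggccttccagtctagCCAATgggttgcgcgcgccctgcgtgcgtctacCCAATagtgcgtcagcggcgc
Cdk1, chr10:69352913-69353162, minus strand, bases -250 to -1: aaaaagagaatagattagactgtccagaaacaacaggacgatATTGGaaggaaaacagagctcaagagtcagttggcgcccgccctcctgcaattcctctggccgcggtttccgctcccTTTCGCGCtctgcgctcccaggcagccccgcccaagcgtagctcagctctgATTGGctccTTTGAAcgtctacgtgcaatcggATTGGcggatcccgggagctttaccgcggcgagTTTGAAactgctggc
The Ccnb2 window held 3 CCAAT matches, at -87, -54 and -21, and 1 TTTGAA match at -167. In the Cdk1 window ATTGG stood at -208, -80 and -48, TTTGAA at -71 and -15, and TTTCGCGC at -131. The last 26 bases of the Cdk1 window, with the TTTGAA at -15, lie inside the annotated gene. The Ccnb1 window held CCAAT at -99 and, outside the printed stretch, at -67. It held no match to TTTGAA or to the E2F-like letters searched. Other forms of these elements were not searched, so an element of another spelling is not excluded. The last 84 bases of the Ccnb1 window lie inside the annotated gene and are not printed. Of 32851 promoters of the same length in the table, 33.8% held CCAAT or its reverse, 16% TTTGAA and 1.86% an E2F-like match. These matches describe letters and were not tested as binding sites.

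Paclitaxel lowered most of these transcripts and raised a few. In the average over both EV labels, 7 members fell (Ccnd3, Ccne1, Ccne2, Ccna2, Ccnb1, Cdk1 and Cdk2) and 3 rose (Ccnd1, Ccnd2 and Ccnb2), with a median log2 fold change of -0.46 over the 10 against 0.07 over all genes tested. The background of this comparison was large, since 37.1% of all genes tested were called higher and 31.3% lower by edgeR's quasi-likelihood test at an adjusted p of 0.05. Within the libraries labelled EV-proficient, 5 members fell (7 with median-of-ratios scaling, DESeq2 or limma-voom, which add Ccnb1 and Cdk1) and 3 rose, against 27.1% of all genes called lower and 31.1% higher, and the DMSO and paclitaxel libraries did not overlap for 9 of 10 members, as for 62.3% of all genes. Within the libraries labelled EV-deficient, 7 fell and none of the 10 rose, against 30.5% called lower and 32.4% higher (7 fell and 3 rose under upper-quartile scaling, against 23.4% and 40.5%, and 1 rose with the filter of 1 CPM in 3 libraries), and 8 of 10 did not overlap, as for 68.7% of all genes. Ccnd1, Ccnd2 and Ccnb2 were the members not called there. Their unadjusted p-values by edgeR were 0.34, 0.52 and 0.11. In bulk RNA, a smaller share of cells in a phase and less RNA per cell cannot be told apart.

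**Figure D1:**
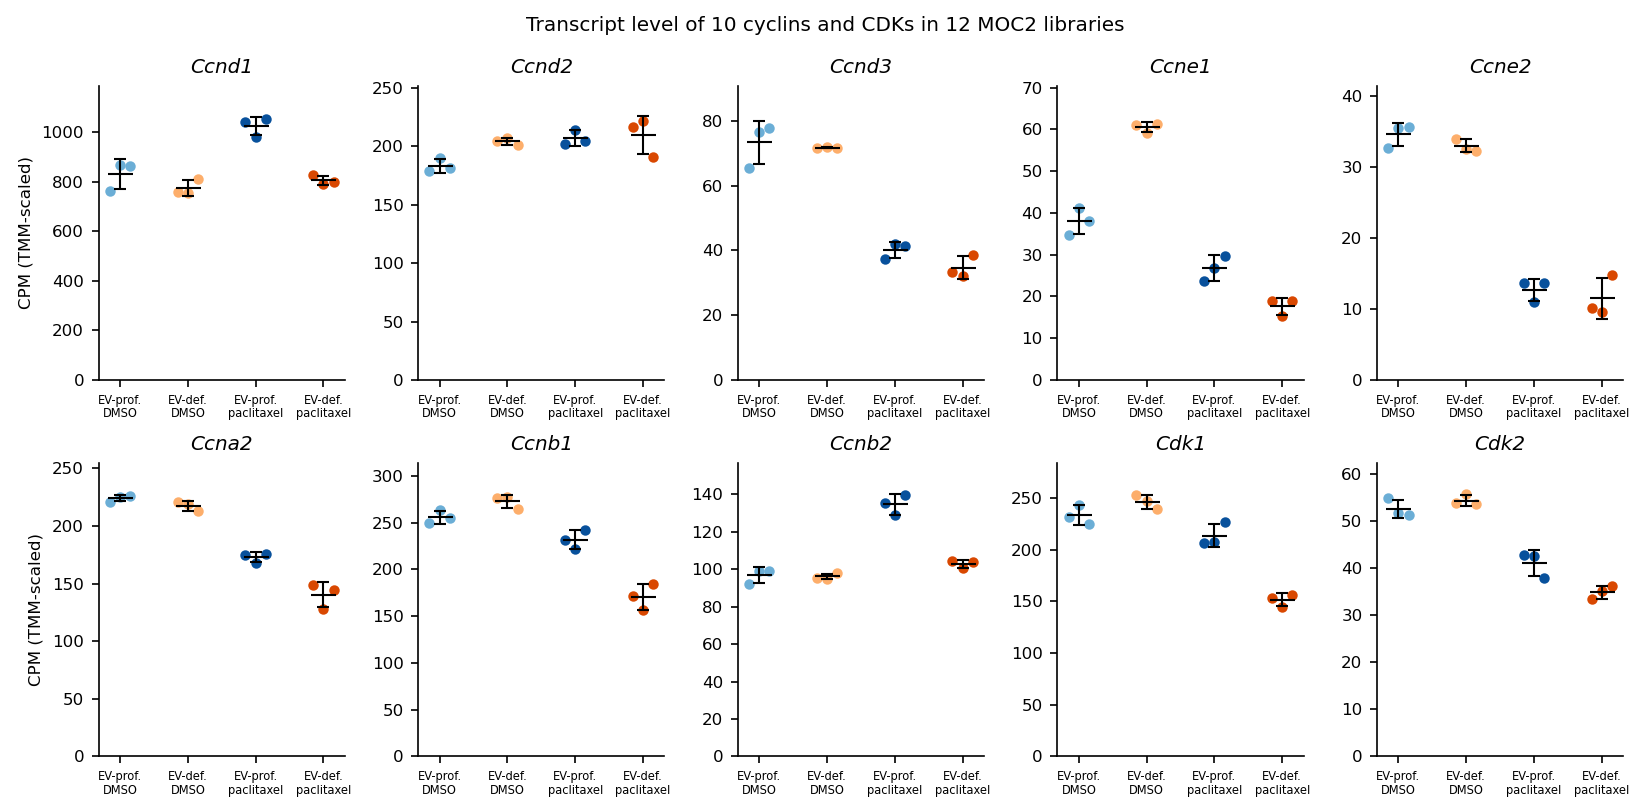
Level of each member in CPM (on scaled library sizes, linear axes from 0) in the 4 groups, with each library as a point and mean ± SD (n = 3) as bars. Ccne2 and Ccnd3 sit lower in all 6 paclitaxel libraries, Ccnb2 sits higher in all 6, and Ccne1 has its highest level in EV-deficient DMSO and its lowest in EV-deficient paclitaxel.

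**Figure D2:**
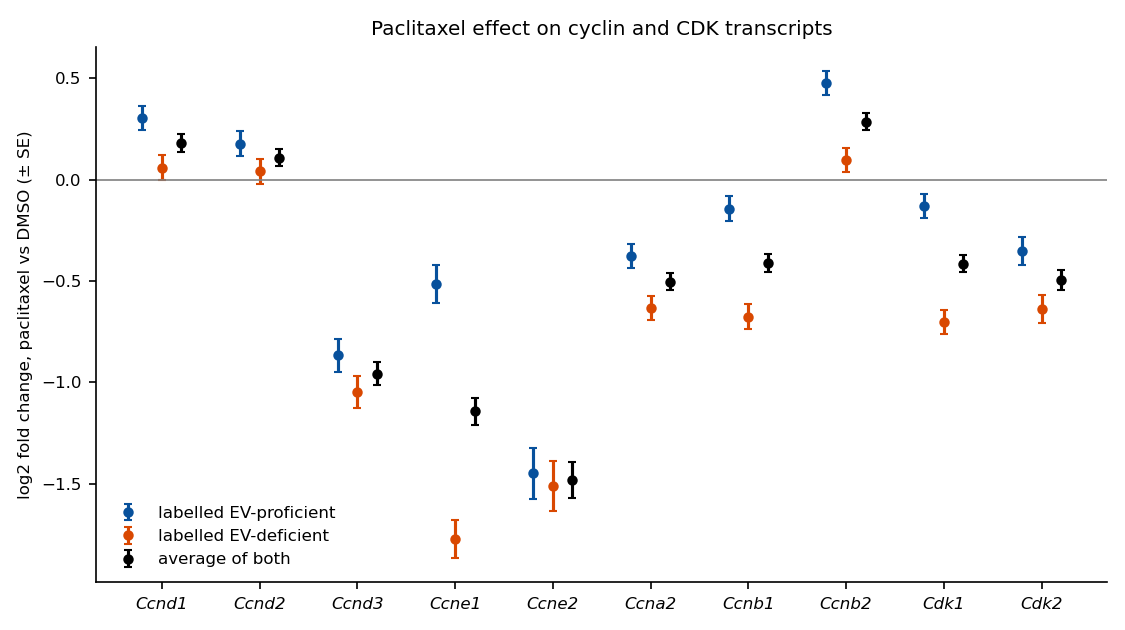
Log2 fold change with paclitaxel ± SE from edgeR for each member, in libraries labelled EV-proficient, in libraries labelled EV-deficient, and averaged over both. The points run from 0.48 for Ccnb2 in EV-proficient libraries to -1.77 for Ccne1 in EV-deficient libraries.

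Ccnd1 (ENSMUSG00000070348, chromosome 7, 144929931 to 144939925 on GRCm38, minus strand) encodes cyclin D1 and was the most abundant member. Per kilobase of exon it stood at 176 ± 12.8 CPM (SD, n = 3) in EV-proficient DMSO, followed by Ccnb2 at 63.2 ± 2.7 and Ccnb1 at 60.7 ± 1.7, which did not differ beyond their spread, then Ccna2 at 54.9 ± 0.7 and Cdk1 at 47.3 ± 1.9. Below these came Ccnd2 at 19.5 ± 0.6, Ccne1 at 14.3 ± 1.2 and Ccne2 at 9.89 ± 0.47. Cdk2 at 8.46 ± 0.31 and Ccnd3 at 8.36 ± 0.77 closed the order and did not differ beyond their spread. Lengths are the union of all annotated exons, so a gene with many long isoforms reads low on this scale. Among the 3 D cyclins, Ccnd1 made up 86.3% of the summed level per kilobase in EV-proficient DMSO, Ccnd2 9.56% and Ccnd3 4.09%.

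Ccnd1 counted 761, 868 and 861 CPM in EV-proficient DMSO and 1039, 981 and 1051 CPM in EV-proficient paclitaxel. The EV-deficient libraries had 757, 752 and 809 CPM with DMSO and 825, 791 and 798 CPM with paclitaxel. Only the EV-proficient paclitaxel libraries stood apart, above all 9 others. The log2 fold change was 0.30 ± 0.06 (SE) in EV-proficient libraries (edgeR adjusted p = 1.82e-04) and 0.06 ± 0.06 in EV-deficient libraries (adjusted p = 0.41), and 0.18 ± 0.04 on average (adjusted p = 7.42e-04).

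Ccnd2 (chromosome 6, 127125162 to 127152193, minus strand), the cyclin D2 gene, varied least. Its levels ran from 179 to 190 CPM in EV-proficient DMSO, 201 to 207 in EV-deficient DMSO, 202 to 214 in EV-proficient paclitaxel and 191 to 222 in EV-deficient paclitaxel. The EV-proficient DMSO libraries were the lowest 3 of the 12. The fold change was 0.18 ± 0.06 in EV-proficient libraries (edgeR adjusted p = 0.017) and 0.04 ± 0.06 in EV-deficient libraries (adjusted p = 0.59), and the average of 0.11 ± 0.04 passed narrowly (adjusted p = 0.031). The average call ended without any single library other than EV-proficient DMSO replicate 2 and EV-deficient paclitaxel replicate 3 (0.06 to 0.11 over these 10 fits), and with no low-count filter (0.10, edgeR adjusted p = 0.085). The EV-proficient call ended without DMSO replicate 1 or 3 or any of the 3 paclitaxel libraries of that label (0.09 to 0.17).

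Ccnd3 (chromosome 17, 47505051 to 47599691, plus strand), the cyclin D3 gene, fell. In EV-proficient libraries it went from 65.6, 76.5 and 77.9 CPM with DMSO to 37.5, 41.9 and 41.2 CPM with paclitaxel. The EV-deficient levels went from 71.6, 71.9 and 71.5 CPM to 33.3, 32.0 and 38.6 CPM. All 6 paclitaxel libraries lay below all 6 DMSO libraries. The fold changes were -0.87 ± 0.08 (edgeR adjusted p = 7.46e-09) and -1.05 ± 0.08 (adjusted p = 2.54e-10), and their difference of -0.18 ± 0.11 did not pass the test (adjusted p = 0.22). Ccnd3 shares its locus with Bysl on the opposite strand, which had 1190 to 7459 counts, and whether strand was used in counting is not given in the sources used here. Opposite-strand neighbours also overlap Ccnd1 (LTO1, 284 to 912 counts), Ccne2 (Ints8, 1150 to 3462) and Ccna2 (Exosc9, 1055 to 3559). Those at Ccnd2 and Cdk2 had at most 73 counts.

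The ratio of Ccnd1 to Ccnd3 per kilobase, a measure within a library that no scaling factor enters, was 21.1 ± 0.5 in EV-proficient DMSO and 20.1 ± 0.9 in EV-deficient DMSO, and 47.6 ± 4.1 and 43.6 ± 4.4 with paclitaxel. The mean change was 2.21-fold, with no overlap between treatments. Ccnd3 thereby went from 4.09% to 1.88% of the D cyclin level in EV-proficient libraries and from 4.21% to 2.00% in EV-deficient libraries. The ratio of Ccnd1 to Ccnd2 changed 1.05-fold, a log2 change of 0.08 against a replicate SD of 0.09. In all, 9 such ratios were computed. They were chosen after the member values had been seen and carry no test.

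Ccne1 (chromosome 7, 38097984 to 38107534, minus strand), the cyclin E1 gene, had the largest difference in response between the EV labels. It counted 34.8, 41.1 and 38.1 CPM in EV-proficient DMSO and 23.6, 26.8 and 29.8 CPM in EV-proficient paclitaxel. With EV-deficient cells the levels were 61.0, 59.2 and 61.4 CPM with DMSO and 18.8, 15.4 and 18.8 CPM with paclitaxel. No group of libraries overlapped any other, and the EV-deficient groups were the highest and the lowest of the 4. The fold change was -0.51 ± 0.09 in EV-proficient libraries (edgeR adjusted p = 6.58e-05) and -1.77 ± 0.09 in EV-deficient libraries (adjusted p = 8.42e-13).

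Ccne2 (chromosome 4, 11191351 to 11204779, plus strand), the cyclin E2 gene, fell under both labels. It went from 32.7, 35.5 and 35.5 CPM to 13.6, 10.9 and 13.6 CPM in EV-proficient libraries, and from 34.0, 32.5 and 32.3 CPM to 10.2, 9.49 and 14.8 CPM in EV-deficient libraries. Treatment separated the 12 libraries without overlap, and within a treatment the EV labels overlapped. The fold changes were -1.45 ± 0.13 (edgeR adjusted p = 3.05e-09) and -1.51 ± 0.13 (adjusted p = 8.74e-10), with a difference of -0.06 ± 0.18 (95% interval -0.41 to 0.28, adjusted p = 0.82). The average of -1.48 ± 0.09 was the lowest among the 10 members.

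The ratio of Ccne1 to Ccne2 per kilobase was 1.44 ± 0.07 in EV-proficient DMSO and 2.79 ± 0.47 in EV-proficient paclitaxel. For EV-deficient libraries it was 2.42 ± 0.07 with DMSO and 2.07 ± 0.39 with paclitaxel, where the ranges overlapped. The EV-proficient DMSO libraries thus had the least cyclin E1 transcript relative to cyclin E2, at 1.40 to 1.52 against 1.67 to 3.21 in the other 9 libraries.

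Ccna2 (chromosome 3, 36564865 to 36572150, minus strand), the cyclin A2 gene, went from 221, 225 and 227 CPM to 175, 168 and 176 CPM in EV-proficient libraries. In EV-deficient libraries it went from 221, 219 and 213 CPM to 149, 128 and 144 CPM. Both DMSO groups lay above both paclitaxel groups, and the EV-deficient paclitaxel libraries were the lowest. The fold changes were -0.38 ± 0.06 (edgeR adjusted p = 1.43e-05) and -0.63 ± 0.06 (adjusted p = 6.77e-09).

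Cdk2 (chromosome 10, 128697939 to 128705031, minus strand), the kinase that E and A cyclins activate, was likewise lowest in EV-deficient paclitaxel. It went from 54.8, 51.8 and 51.2 CPM to 42.8, 42.6 and 37.9 CPM in EV-proficient libraries, and from 53.8, 55.6 and 53.6 CPM to 33.4, 35.0 and 36.2 CPM in EV-deficient libraries. The fold changes were -0.35 ± 0.07 (edgeR adjusted p = 1.48e-04) and -0.64 ± 0.07 (adjusted p = 4.14e-08). The ratio of Ccna2 to Cdk2 per kilobase was 6.50 ± 0.31 in EV-proficient DMSO, 6.10 ± 0.14 in EV-deficient DMSO, 6.43 ± 0.57 in EV-proficient paclitaxel and 6.15 ± 0.62 in EV-deficient paclitaxel, and its mean log2 change of -0.0058 was small beside the replicate SD of 0.10.

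Ccnb1 (chromosome 13, 100778650 to 100786570, minus strand) encodes cyclin B1. It counted 250, 263 and 254 CPM in EV-proficient DMSO and 231, 222 and 242 CPM in EV-proficient paclitaxel. In EV-deficient libraries it went from 276, 277 and 265 CPM to 171, 157 and 184 CPM. The EV-proficient groups did not overlap but lay close, while the EV-deficient paclitaxel libraries stood well below all others. The fold change in EV-proficient libraries was -0.14 ± 0.06 and missed the threshold (edgeR adjusted p = 0.053), and in EV-deficient libraries it was -0.68 ± 0.06 (adjusted p = 4.52e-09).

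Cdk1 (chromosome 10, 69335146 to 69352938, minus strand), the mitotic kinase, moved with Ccnb1. It counted 232, 244 and 225 CPM in EV-proficient DMSO and 206, 208 and 227 CPM in EV-proficient paclitaxel, which overlapped. In EV-deficient libraries it went from 253, 247 and 239 CPM to 153, 145 and 156 CPM, without overlap. The fold changes were -0.13 ± 0.06 (edgeR adjusted p = 0.066) and -0.70 ± 0.06 (adjusted p = 1.11e-09). Without any 1 of the 3 EV-proficient paclitaxel libraries the EV-proficient effect of Ccnb1 passed the test (-0.21 to -0.17), and that of Cdk1 did so without replicate 2 or 3 (-0.17 and -0.21). With all libraries, both were called lower by DESeq2 (adjusted p = 0.017 each), by limma-voom (adjusted p = 0.040 and 0.047) and by edgeR with median-of-ratios scaling (adjusted p = 0.026 and 0.030). With upper-quartile scaling the effects were smaller, at -0.083 and -0.068, and not called (edgeR adjusted p = 0.25 and 0.31).

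Ccnb2 (chromosome 9, 70407692 to 70421547, minus strand), which encodes cyclin B2, the other mitotic partner of Cdk1, went the other way. It counted 92.0, 99.3 and 99.2 CPM in EV-proficient DMSO and 135, 129 and 139.9 CPM in EV-proficient paclitaxel. The EV-deficient libraries had 95.5, 95.0 and 97.9 CPM with DMSO and 104, 100.5 and 104 CPM with paclitaxel. The paclitaxel libraries lay above the DMSO libraries in both, by a wide gap in the first and a narrow one in the second. The fold change was 0.48 ± 0.06 in EV-proficient libraries (edgeR adjusted p = 4.30e-07) and 0.10 ± 0.06 in EV-deficient libraries (adjusted p = 0.15), and 0.29 ± 0.04 on average (adjusted p = 2.47e-06). Under upper-quartile scaling, which raises the median of all genes by 0.18 in EV-deficient libraries, Ccnb2, Ccnd1 and Ccnd2 were also called higher there (0.28, 0.24 and 0.22), and 40.5% of all genes were called higher and 23.4% lower. The median of all genes was 0.26 in that fit. With the filter of 1 CPM in 3 libraries Ccnb2 alone of the 3 was also called higher (0.16, edgeR adjusted p = 0.013), where the median of all genes was 0.02.

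The ratio of Ccnb2 to Ccnb1 per kilobase was 1.02, 1.04 and 1.07 in EV-proficient DMSO and 0.954, 0.944 and 1.02 in EV-deficient DMSO. With paclitaxel it was 1.61, 1.60 and 1.59 in EV-proficient libraries and 1.68, 1.77 and 1.55 in EV-deficient libraries. The ratio was thus higher in all 6 paclitaxel libraries than in all 6 DMSO libraries, by a mean change of 1.62-fold. Its level depends on the exon lengths used (1531 bases for Ccnb2 and 4217 for Ccnb1), and in CPM Ccnb1 exceeded Ccnb2 in each group, but the change in the ratio does not depend on them. The change was present under both EV labels, at 1.54-fold and 1.71-fold. The ratio of Ccnb2 to Cdk1 changed likewise, 1.63-fold, from 1.34 and 1.26 with DMSO to 2.03 and 2.19 with paclitaxel. By contrast the ratio of Ccnb1 to Cdk1 was 1.28, 1.29, 1.27 and 1.32 in the 4 groups, with a mean log2 change of 0.0041 against a replicate SD of 0.04. Ccnd1 to Ccnb1 rose 1.51-fold. Cdk1 to Cdk2 changed 1.06-fold on average, with a log2 change of 0.08 against a replicate SD of 0.11. This mean covers different changes by EV label. In EV-proficient libraries Cdk1 to Cdk2 rose 1.17-fold (log2 change 0.23), and the ranges did not overlap (5.33 to 5.93 with DMSO, 6.08 to 7.54 with paclitaxel). In EV-deficient libraries it changed 0.96-fold (log2 change -0.06), and the ranges overlapped.

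**Figure D3:**
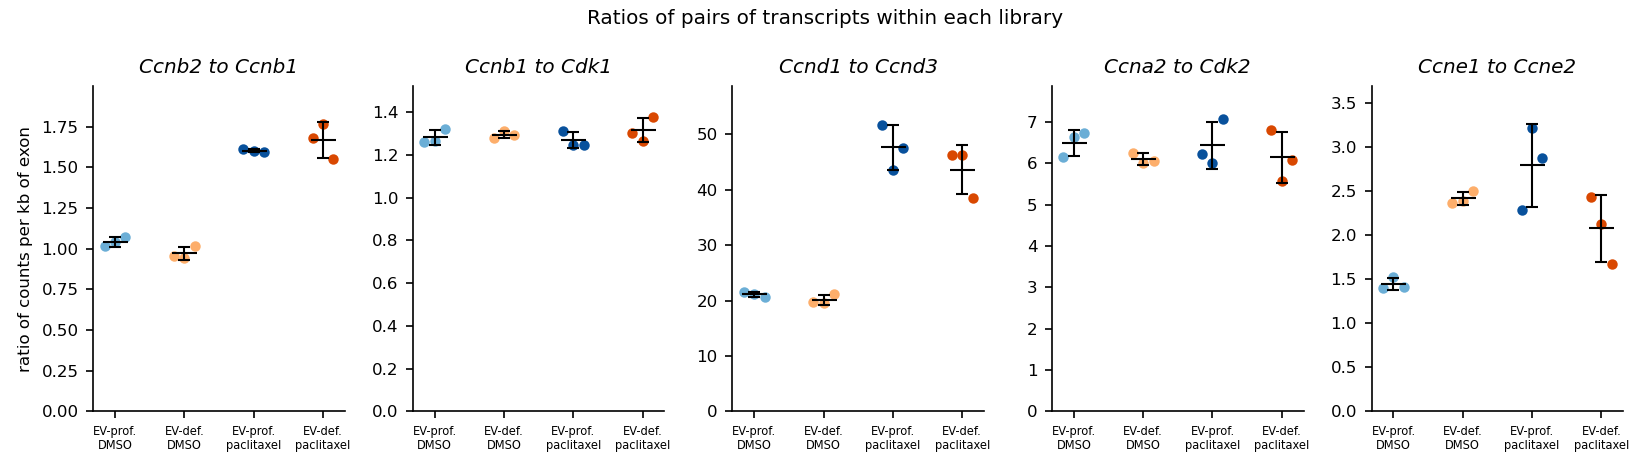
Ratio of counts per kilobase of exon for 5 pairs of members in each library (points), with mean ± SD (n = 3), on linear axes from 0. Ccnb2 to Ccnb1 rises from 0.944 to 1.07 with DMSO to 1.55 to 1.77 with paclitaxel and Ccnd1 to Ccnd3 from 19.5 to 21.6 to 38.5 to 51.7, while Ccnb1 to Cdk1 stays between 1.25 and 1.38 in all 12 libraries.

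Between the EV labels with DMSO, 1 member differed. Ccne1 was higher in EV-deficient DMSO by 0.67 ± 0.09 on the log2 scale, 1.59-fold (edgeR adjusted p = 9.00e-06), against a background of 12.4% of all genes called higher and 10.6% lower. Groups did not overlap for 4 of 10 members (Ccnd2, Ccne1 and Ccnb1 higher in EV-deficient, Ccna2 lower), close to the 43.3% of all genes. The median over the 10 was 0.02, against 0.04 over all genes. Ccnd2 had a difference of 0.16 ± 0.06 (adjusted p = 0.071), and the other 8 lay between -0.10 and 0.09.

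Between the EV labels with paclitaxel, 8 members were lower in EV-deficient libraries and none of the 10 was higher, against 21.8% of all genes called lower and 16.0% higher (15.7% and 21.8% under upper-quartile scaling, with 6 members lower). The median over the 10 was -0.32, against -0.0047 over all genes, and 7 of 10 did not overlap, against 44.1%. Ccne1 differed by -0.59 ± 0.09 (edgeR adjusted p = 4.85e-05), Cdk1 by -0.50 ± 0.06 (adjusted p = 1.24e-06), Ccnb1 by -0.44 ± 0.06 (adjusted p = 1.07e-05), Ccnb2 by -0.39 ± 0.06 (adjusted p = 2.06e-05), Ccnd1 by -0.35 ± 0.06 (adjusted p = 1.04e-04) and Ccna2 by -0.30 ± 0.06 (adjusted p = 4.58e-04). Cdk2 at -0.24 ± 0.07 (adjusted p = 0.0087) was no longer called under upper-quartile scaling (-0.14) or in the fit of the 2 groups alone (-0.21, adjusted p = 0.083). Ccnd3 at -0.21 ± 0.08 passed narrowly (adjusted p = 0.043) although its libraries overlapped, and its call ended without EV-proficient paclitaxel replicate 2 or 3 or EV-deficient paclitaxel replicate 1 or 2 (-0.21 to -0.15). It was also not called by DESeq2 (adjusted p = 0.071) or limma-voom (adjusted p = 0.057), under median-of-ratios (0.073) or upper-quartile scaling (0.27), with the filter of 1 CPM in 3 libraries (0.090) or in the fit of the 2 groups alone (0.16). Ccne2 at -0.13 ± 0.13 was not called (adjusted p = 0.45), and without EV-deficient paclitaxel replicate 3, its highest library of that group, it was (-0.36). Ccnd2 differed by 0.02 ± 0.06.

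The interaction asks whether the paclitaxel effect differed between the libraries labelled EV-deficient and EV-proficient. The estimate was negative for all 10 members (that of Ccne2 turned to 0.06 under upper-quartile scaling and changed sign without single paclitaxel libraries), meaning a lower effect in EV-deficient libraries, and passed the test for 7, against 23.8% of all genes called lower and 16.9% higher (18.1% and 21.2% under upper-quartile scaling). The median over the 10 was -0.27, against -0.04 over all genes. Ccne1 had the largest at -1.26 ± 0.13 (edgeR adjusted p = 1.16e-07), followed by Cdk1 at -0.57 ± 0.08 (adjusted p = 1.05e-05), Ccnb1 at -0.53 ± 0.09 (adjusted p = 4.67e-05) and Ccnb2 at -0.38 ± 0.08 (adjusted p = 8.05e-04). These 4 calls held under every alternative run, all of which kept the EV labels as given. Cdk2 at -0.29 ± 0.10 (adjusted p = 0.022), Ccna2 at -0.26 ± 0.08 (adjusted p = 0.019) and Ccnd1 at -0.24 ± 0.08 (adjusted p = 0.026) depended on single libraries and on the scaling.

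Under upper-quartile scaling these 3 were not called (-0.16, -0.13 and -0.12), in a fit that raises the median interaction of all genes by 0.12. Median-of-ratios scaling left 5 members called, without Ccnd1 (edgeR adjusted p = 0.066) and Ccna2 (adjusted p = 0.053), and Ccnd1 was also lost with the filter of 1 CPM in 3 libraries (adjusted p = 0.057). The Ccnd1 call ended without any 1 of the 6 paclitaxel libraries, EV-proficient DMSO replicate 1 or EV-deficient DMSO replicate 3 (-0.23 to -0.18). The Ccna2 call ended without any EV-proficient paclitaxel library or EV-deficient paclitaxel replicate 2 (-0.23 to -0.15). The Cdk2 call ended without EV-deficient DMSO replicate 2 or replicate 1 or 2 of either paclitaxel group (-0.29 to -0.22). Ccnd2 at -0.14 ± 0.09 and Ccnd3 at -0.18 ± 0.11 were not called (adjusted p = 0.23 and 0.22), nor was Ccne2, whose sign changed without replicate 1 or 3 of EV-proficient paclitaxel or replicate 1 or 2 of EV-deficient paclitaxel (0.02 to 0.11). The dngfr level and the second principal component crossed between the same groups. Among the members, Ccne1 alone was called by EV label in both treatments, in opposite directions (0.67 under DMSO and -0.59 under paclitaxel). The part of the dngfr level and of this component in the differences by EV label was not tested.

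**Figure D4:**
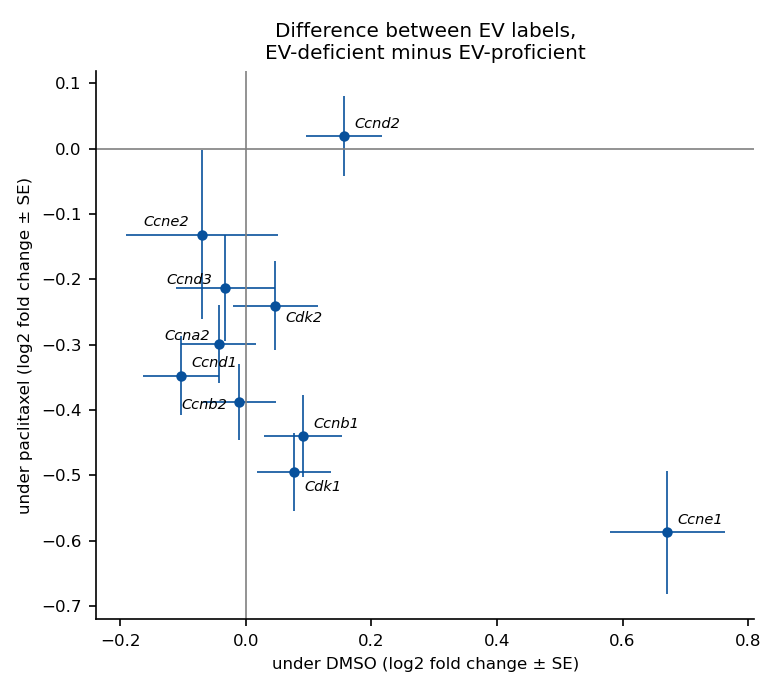
Difference between libraries labelled EV-deficient and EV-proficient for each member (log2 fold change ± SE from edgeR), under DMSO on the x axis and under paclitaxel on the y axis. The other 9 genes lie within 0.16 of 0 under DMSO, where Ccne1 lies at 0.67, while under paclitaxel the values run from 0.02 for Ccnd2 to -0.59 for Ccne1.

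The partners and regulators of these genes were counted from 5 lists. Cdk4, the partner of the D cyclins, had 325 ± 19 CPM (SD, n = 3) in EV-proficient and 421 ± 10 in EV-deficient libraries with DMSO, and 269 ± 11 and 179 ± 16 with paclitaxel. It fell under both labels, by 0.27 and 1.24 on the log2 scale (edgeR adjusted p = 0.0014 and 1.2e-12). Cdk6, the other partner, stood at 295 ± 19, 403 ± 14, 453 ± 31 and 296 ± 14 CPM in the same order. It rose by 0.62 ± 0.06 in EV-proficient libraries and fell by 0.44 ± 0.06 in EV-deficient libraries, an interaction of -1.06 ± 0.09 (edgeR adjusted p = 6.0e-09), and its average of 0.09 ± 0.05 was not called.

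Of the other cyclins and CDKs, 18 of 19 were tested (not Ccnb3), and 7 rose and 7 fell on average, near the 37.1% of all genes called higher and 31.3% called lower, with a median of -0.0017 against 0.07 over all genes. Ccng2, a cyclin linked to cell cycle exit, rose by 1.33 ± 0.06, and Mnat1, the assembly factor of the CDK-activating kinase, by 0.55 ± 0.06. Ccnf, a cyclin that serves as an F-box protein, fell by 1.11 ± 0.05 and Ccnk, the partner of transcriptional CDKs, by 0.44 ± 0.04. Ccna1, the germline A cyclin, was called higher but stayed at or below 0.48 CPM on average in each group.

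Of 15 genes for CDK subunits, enzymes that set CDK phosphorylation and related regulators, 6 rose and 9 fell on average (median -0.20), against 37.1% of all genes called higher and 31.3% lower. In EV-proficient libraries 7 rose and 7 fell (median 0.04), against 31.1% and 27.1% of all genes. In EV-deficient libraries 3 rose and 10 fell (median -0.35), against 32.4% and 30.5%. The interaction was called lower for 10 and higher for 1, against 23.8% and 16.9%. The changes named next are averages over both labels. Wee1, the kinase that holds Cdk1 inactive, rose by 0.76 ± 0.06, while Pkmyt1, which adds an inhibitory phosphate to the same kinase, fell by 0.77 ± 0.06. Cdc25a, the phosphatase that removes such phosphates, fell by 1.31 ± 0.05 and Plk1, the mitotic kinase upstream of Cdk1 activation, by 0.70 ± 0.05. The phosphatase gene Cdc14a rose by 0.86 ± 0.08 and Mastl, the Greatwall kinase, by 0.41 ± 0.05. The effects in EV-proficient and EV-deficient libraries were 1.22 and 0.51 for Cdc14a and 0.18 and 0.65 for Mastl. Interactions were -0.70 ± 0.16 and 0.46 ± 0.10 (edgeR adjusted p = 0.0015 and 9.2e-04). They were -0.50 for Plk1, -0.50 for Pkmyt1 and -0.28 for Cdc25a (edgeR adjusted p = 1.7e-04, 0.0033 and 0.037). That of Wee1 was not called (-0.27).

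Of 7 CDK inhibitors, 4 rose on average and none of the 7 was called lower (median 0.66), against 37.1% of all genes called higher and 31.3% lower. Cdkn1c, the p57 gene, rose by 2.14 ± 0.20 from low levels of 0.40 and 0.66 CPM to 2.06 and 2.55 CPM. Cdkn2b, an inhibitor of Cdk4 and Cdk6, rose by 1.37 ± 0.07 and Cdkn1b, which encodes p27, by 0.82 ± 0.08. In EV-deficient libraries 5 rose and 2 fell, against 32.4% and 30.5% of all genes. The 2, Cdkn1a, the p21 gene, at -0.41 ± 0.10 and Cdkn2c at -0.39 ± 0.12, are named after their values were seen. Cdkn1a rose by 0.43 ± 0.10 in EV-proficient libraries, with an interaction of -0.83 ± 0.14 (edgeR adjusted p = 3.7e-05).

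Of 29 genes for the destruction of cyclins, 18 fell and 5 rose (median -0.25), against 31.3% of all genes called lower and 37.1% higher. Ube2s, a ubiquitin-conjugating enzyme of the anaphase-promoting complex, fell by 0.83 ± 0.04, Skp2, the F-box protein that targets p27, by 0.73 ± 0.05, and Anapc15, a subunit of that complex, by 0.64 ± 0.12. The effects in EV-proficient and EV-deficient libraries were -0.46 and -1.19 for Ube2s (interaction -0.73 ± 0.09, edgeR adjusted p = 1.0e-06) and -0.32 and -1.14 for Skp2 (interaction -0.82 ± 0.11, edgeR adjusted p = 2.4e-06). The conjugating enzyme Ube2d1 rose by 0.43 ± 0.06, the cyclin D1 F-box protein Fbxo31 by 0.41 ± 0.09 (0.80 in EV-proficient and 0.03 in EV-deficient libraries, an interaction of -0.77 ± 0.17, edgeR adjusted p = 0.0011) and the deubiquitinase Usp28 by 0.31 ± 0.06. Of 28 genes for the transcriptional control of cyclins, 16 fell and 8 rose (median -0.27), against the same 31.3% and 37.1%. Mybl2, the B-Myb factor that activates mitotic genes, fell by 1.63 ± 0.09, E2f7, a repressor of E2F targets, by 1.25 ± 0.08, and Nfyc, a subunit of the CCAAT-binding factor NF-Y, by 1.25 ± 0.07. Rbl2, the p130 pocket protein of the repressor complex of quiescent cells, rose by 1.33 ± 0.06, Fos by 1.38 ± 0.12 and Tfdp2, an E2F dimer partner, by 1.15 ± 0.06.

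**Figure D5:**
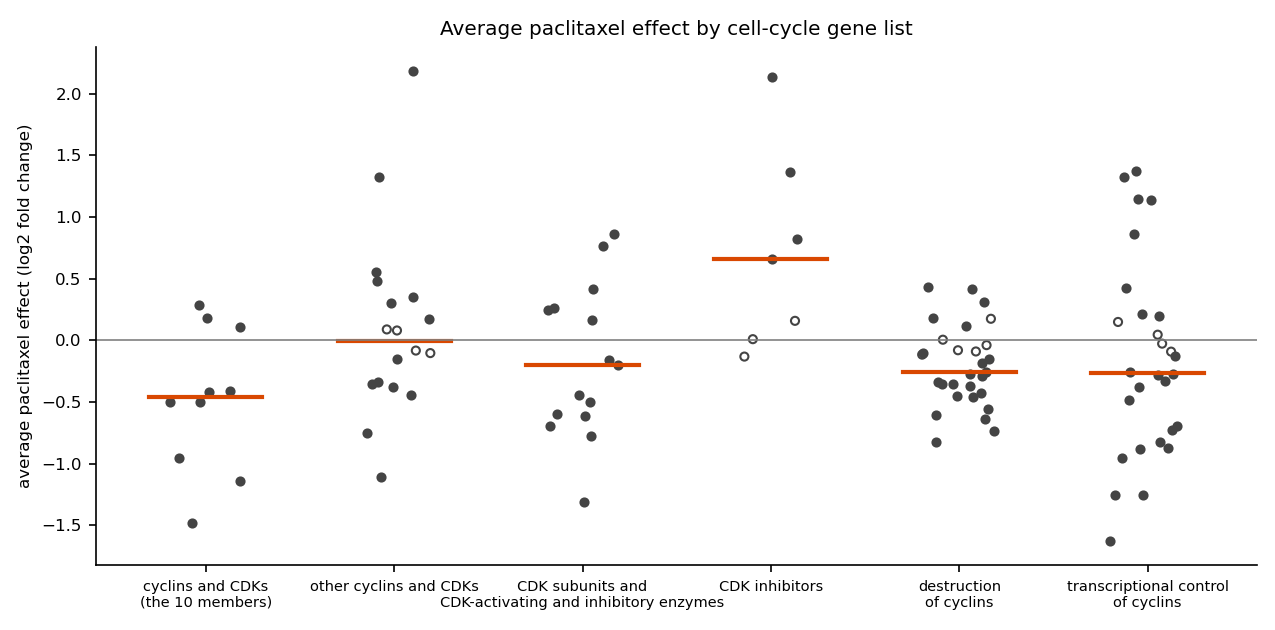
Average paclitaxel effect (log2 fold change) of each tested gene of the 10 members and of the 5 lists, with filled points for genes called by edgeR, open points for genes not called, and a bar at each median. The medians run from -0.46 for the members to 0.66 for the CDK inhibitors, against 0.07 over all genes.

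The genes most like each member across the 12 libraries were taken as those with the smallest root mean square difference of centred log2 CPM among 9887 candidates. Ccnb1 and Cdk1 were each other's nearest gene, at 0.039 log2 units. Ccnb2 was the nearest gene to Ccnd1 (0.068), and Ccnd1 the second nearest to Ccnb2 after Atrnl1 (0.055). No other pair of members was within the 20 nearest genes of either. Ccne2 was nearest to Rrm2 (0.11), which encodes a ribonucleotide reductase subunit, and then to Tfrc (0.13). Ccne1 was nearest to Dis3 (0.13) and Hirip3 (0.14), Ccna2 to Fam120a and Agpat3 (0.050 each), Cdk2 to Fam168b (0.043) and Cdk5rap2 (0.050), Ccnd3 to Gpc1 (0.062) and Pgs1 (0.063), and Ccnd2 to Slu7 (0.042) and Tob2 (0.049). These are descriptions over libraries that share 4 groups, and carry no test.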

How the data were processed

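Polyadenylated RNA from 12 MOC2 cultures was sequenced, with stranded library preparation, per the labels' protocols. Raw read counts per Ensembl gene, without normalization, were deposited by the authors. STAR 2.5.0a and GRCm38 are named in the submitters' processing notes, with no role given. The counting program, the annotation and the use of strand in counting are not given in the sources used here. The table held 0 columns of other samples, and the 2 rows added by the authors, gfp (0 counts) and dngfr, were left out of library sizes and tests.

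The analysis used edgeR 4.0.16 in R 4.3.3. Of 35104 genes with any count, filterByExpr (minimum count 10) kept 18108. TMM scaling was used (factors 0.891 to 1.15), and 1 quasi-likelihood fit with 4 group means covered all 12 libraries (common dispersion 0.00956). The 6 comparisons were the paclitaxel effect per EV label and its average over both, the EV labels against each other under DMSO and under paclitaxel, and the interaction. Benjamini-Hochberg adjustment ran over all genes tested, with 0.05 as threshold. SE was taken as the log2 fold change over the root of the F statistic. The labels do not say that replicates are separate experiments, so p-values measure the spread between these samples, which may be technical. Replicates of a group differed by more than sampling noise (chi-square per degree of freedom 4.20 to 31.1). Gene coordinates and exon lengths are from GENCODE on GRCm38.

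Members, lists and comparisons were chosen with earlier results of these data known. Named were all 10 members, Cdk4, Cdk6, at most the 3 highest and 3 lowest called average effects of each list, and the 2 genes most like each member (mean of at least 5 CPM, prior count 2). Results were recomputed with other tools (limma-voom from limma 3.58.1, DESeq2 1.42.0), other scalings (upper-quartile, median-of-ratios), other filters (none, or 1 CPM in at least 3 libraries), a replicate block, fits to the 2 groups alone, and each library left out in turn. Ratios of members were added after the data were seen.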

Additional observations from a re-analysis of the deposited data

Results flagged for a closer look

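The paclitaxel effect differed between the 2 EV labels for 7 members by the interaction test of edgeR, in each case lower in the libraries labelled EV-deficient, against 23.8% of all genes called lower and 16.9% higher. On the log2 scale the differences were -1.26 for Ccne1, -0.57 for Cdk1, -0.53 for Ccnb1, -0.38 for Ccnb2, -0.29 for Cdk2, -0.26 for Ccna2 and -0.24 for Ccnd1. The values of Cdk2, Ccna2 and Ccnd1 lost their call without single libraries and under upper-quartile scaling, as given with the interaction results.

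The row for dngfr, an added sequence outside the gene comparisons, stood at 10.9 CPM in the EV-deficient paclitaxel libraries against 2.14 CPM in EV-deficient DMSO, while in EV-proficient libraries it was lower with paclitaxel (3.24 CPM) than with DMSO (8.99 CPM).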

How the results depend on the processing

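Of 940 values of single members under the alternatives, 855 kept their direction and side of the threshold, 51 lost their call, 18 gained one and 16 changed sign. The average paclitaxel effects of the members other than Ccnd2 kept direction and call under every alternative run. Signs changed only for values near 0 that were not called: with no low-count filter the difference under DMSO became 0.0090 for Ccnd3 and 0.032 for Ccnb2, and that of Ccnd2 under paclitaxel -0.0048, and under upper-quartile scaling the interaction of Ccne2 became 0.062. Over fits without 1 library, these values ranged from -0.10 to 0.016 for Ccnd3 and -0.0396 to 0.015 for Ccnb2 under DMSO, from -0.013 to 0.082 for Ccnd2 under paclitaxel, and from -0.25 to 0.11 for the Ccne2 interaction. The number of members called in the interaction fell from 7 to 4 under upper-quartile scaling, while the share of all genes called lower went from 23.8% to 18.1% and higher from 16.9% to 21.2%, and over fits without 1 library it lay between 4 and 7. With DMSO, 2 members in place of 1 differed by EV label with no low-count filter and with only the 2 groups compared (Ccne1 and Ccnd2). The causes of these moves were not tested. The 9 ratios moved by less than their replicate SD without any 1 library.

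Correlations by replicate number were weak. Over 18 pairs of libraries with the same number in different groups, deviations from the group means correlated between -0.08 and 0.10. A library correlated best with its own number in 16 of 36 cases. Between EV-deficient DMSO and EV-deficient paclitaxel the same-number values were 0.051, 0.016 and 0.019, above all others of these groups. Such small values cannot settle whether the numbers pair the samples. With the replicate number as a block, the counts of members called were 8, 7, 10, 1, 8 and 7 in the 6 comparisons, as without it, and no call of a member changed.

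Each member had at least 337 counts in every library. A floor of 3 counts corresponds to 0.0477 to 0.129 CPM, and covers counting error only.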
